A study of Amphiura filiformis with 28 samples.

Results

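The distal and proximal ends of severed arms of the brittle star *Amphiura filiformis* were compared directly, 3 days post amputation (dpa). The comparison used 7 of the 28 RNA-seq samples of the series, 4 of distal segments (replicates 1 to 4) and 3 of proximal segments (replicates 2 to 4). The samples compared were chosen by segment and day and not by a measured value, although earlier results of these data were known. An explant is an arm cut first near the disc, which leaves the proximal wound, and then at its other end, which leaves the distal wound. Explants were cultured in aquaria and cut into distal, medial and proximal segments at 3 or 5 dpa. All animals were wild type and untreated, and the control for either end is the medial segment of the explants, which carries no fresh wound. Each sample is a pool of segments from a batch of explants, so that 1 sample does not stand for 1 animal, and the segments are whole arm tissue. The 4 medial samples of 3 dpa, the 3 samples of each segment at 5 dpa and an arm regeneration time course with 1 sample a stage entered only where stated.

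Brittle stars regrow lost arms. In an explant, the distal end regenerates, with wound closure followed by growth of a new bud, whereas the proximal end closes its wound without regrowth. Both ends thus share injury and repair, and a direct contrast of the ends asks which genes are expressed at a different level where regrowth follows. The ends also differ in place along the arm and in the order of cutting, which cannot be told apart here from regrowth. Such growth is generally served by cell division and by the making of ribosomes, mitochondria and proteins, while differentiated tissue of the arm includes muscle, nerve and skeleton.

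Expression values are TPM (transcript abundances scaled to a fixed sum in each sample) that the authors rescaled between samples (TMM, trimmed mean of M-values). Of 30090 genes in the explant table, 21442 reached 1 in 3 or more of the 20 explant samples and were tested. The number of reads behind a value is not held in TPM and is unknown here. Totals of the 7 samples ranged from 1024512 to 1276269 in distal and from 1200897 to 1354951 in proximal segments. Pearson's r between log2 profiles was 0.973 to 0.982 within distal, 0.971 to 0.985 within proximal and 0.963 to 0.978 between segments, across genes that are not independent replicates. The first principal component (32.0% of the variance) separated the segments, with distal replicate 4 nearest to the proximal side. The second (22.9%) set replicate 4 of both segments apart from the rest.

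The direct contrast of the ends at 3 dpa called 69 genes (0.322%), 32 higher in distal (0.149%) and 37 higher in proximal segments (0.173%). Called genes had both a log2 fold change beyond 1 in either direction and an adjusted p (limma, Benjamini-Hochberg over all genes tested) below 0.05. The called genes spanned low to high expression, with means in the higher segment from 1.35 to 196 for the distal-high genes and from 2.67 to 290.1 for the proximal-high genes. In all 69 genes the 4 distal and 3 proximal samples did not overlap. Over all genes tested, 8.5% were without overlap and higher in distal and 9.2% without overlap and lower. The median absolute log2 fold change was 1.17 among the distal-high and 1.24 among the proximal-high genes, while the median change of all genes was -0.01.

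Without the minimum fold change 155 genes (0.723%) passed, 100 of them higher in distal segments. The fit behind the 69 calls did not pair samples by replicate number. With samples so paired 76 genes were called, 26 higher and 50 lower in distal, among them 55 of the 69. The number of calls rested on few samples. It was 36, 38 and 25 without distal replicate 1, 2 or 3, 90 without distal replicate 4, and 22, 20 and 21 without proximal replicate 2, 3 or 4. Leaving out both replicate 4 samples, which was added once the data had been seen, gave 25 calls, 12 of them higher in distal. Rescaling all samples to the same total moved the median log2 fold change of all genes from -0.01 to 0.11. The calls were then 48 higher and 29 lower in distal, or 62.3% higher against 46.4%.

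**Figure D1:**
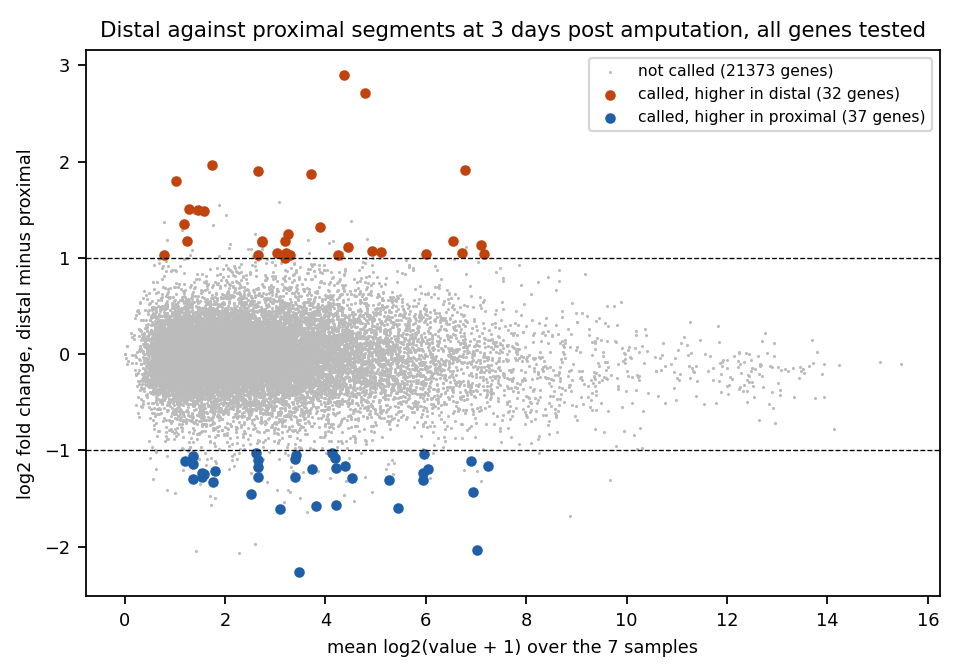
Log2 fold change of distal minus proximal segments at 3 dpa (vertical axis) against the mean log2(value + 1) over the 7 samples (horizontal axis), 1 point per gene tested. The 32 called genes higher in distal and the 37 higher in proximal segments are coloured, dashed lines mark a log2 fold change of 1 either way, and most genes lie close to 0 at every level.

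The 3 distal-high genes described here are known only by identifier. AFI33635 carries a methyltransferase and a thyroglobulin domain, and the study singled it out from these samples, so its direction is not independent evidence. Its expression was 4.42, 6.22, 6.75 and 3.15 in distal samples 1 to 4 and 0.30, 0.40 and 0.93 in proximal samples 2 to 4. Every distal sample was above every proximal sample, with a mean of 5.13 ± 1.66 (SD, n = 4) against 0.55 ± 0.34 (SD, n = 3). The log2 fold change was 1.97 ± 0.32 (SE, adjusted p = 0.00841, limma). With proximal values under 1 this change depended on the pseudocount and was 3.08 with 0.1 in place of 1. The call was lost without proximal replicate 2 (adjusted p = 0.0651) or 3 (adjusted p = 0.0565).

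AFI19838 and AFI16321 had the largest changes towards distal among genes with a mean of at least 10. AFI19838 was at 43.8, 49.7, 45.8 and 53.1 in the distal samples and at 6.43, 4.32 and 6.13 in the proximal samples. The ratio of the means was 8.55, and the log2 fold change was 2.90 ± 0.35 (SE, adjusted p = 0.000819, limma). AFI16321 was at 62.1, 58.0, 58.8 and 65.8 in the distal and at 6.72, 9.33 and 9.67 in the proximal samples. Its ratio of means was 7.13 (log2 fold change 2.71 ± 0.31, SE, adjusted p = 0.000749, limma). In both genes the gap between the segments was wide beside the spread within each. No name or domain was given for either gene in the sources used here.

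Among the proximal-high genes, AFI18858 had the largest change. It encodes a protein with a B-box zinc finger, a domain of the TRIM proteins, many of which act in innate immunity and as ubiquitin ligases in vertebrates. It is also a gene that the study picked out on these samples. It was at 5.72, 3.67, 5.38 and 4.22 in the distal samples and at 29.9, 28.5 and 21.1 in the proximal samples, a mean of 4.75 ± 0.96 (SD, n = 4) against 26.5 ± 4.71 (SD, n = 3). The proximal samples were all above the distal ones (log2 fold change -2.26 ± 0.30, SE, adjusted p = 0.0014, limma). AFI15320, which has no name here, was among the more abundant called genes, at 77.1, 78.6, 65.2 and 60.7 in the distal and at 288.4, 266.4 and 315.4 in the proximal samples. Its ratio of proximal to distal means was 4.12, and its log2 fold change was -2.03 ± 0.20 (SE, adjusted p = 0.000119, limma).

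Agrg7-5 (AFI31186) was the only called gene on chromosome 1, the sole chromosome for which gene names were used here. Of its genes, 860 were tested. Names are best matches to SwissProt proteins and positions are those of the study's *A. filiformis* assembly. Agrg7-5 lies on the plus strand of chromosome 1 from 37234326 to 37259850 and is named after an adhesion G protein-coupled receptor, a class of cell-surface receptors that cut themselves at a site outside the membrane and signal through G proteins. The study lists it among immune genes. It was at 2.11, 2.48, 2.51 and 4.07 in the distal samples and at 8.03, 8.79 and 10.996 in the proximal samples, with no overlap (ratio of proximal to distal means 3.32; log2 fold change -1.45 ± 0.21, SE, adjusted p = 0.00231, limma). Its namesake Agrg7-4 was close to equal in the segments, with a log2 fold change of 0.07 and an adjusted p of 0.965 (limma). How the authors' pseudo-alignment shares reads between such related genes was not tested. In segments of whole tissue, more cells of a type and more RNA per cell cannot be told apart.

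**Figure D2:**
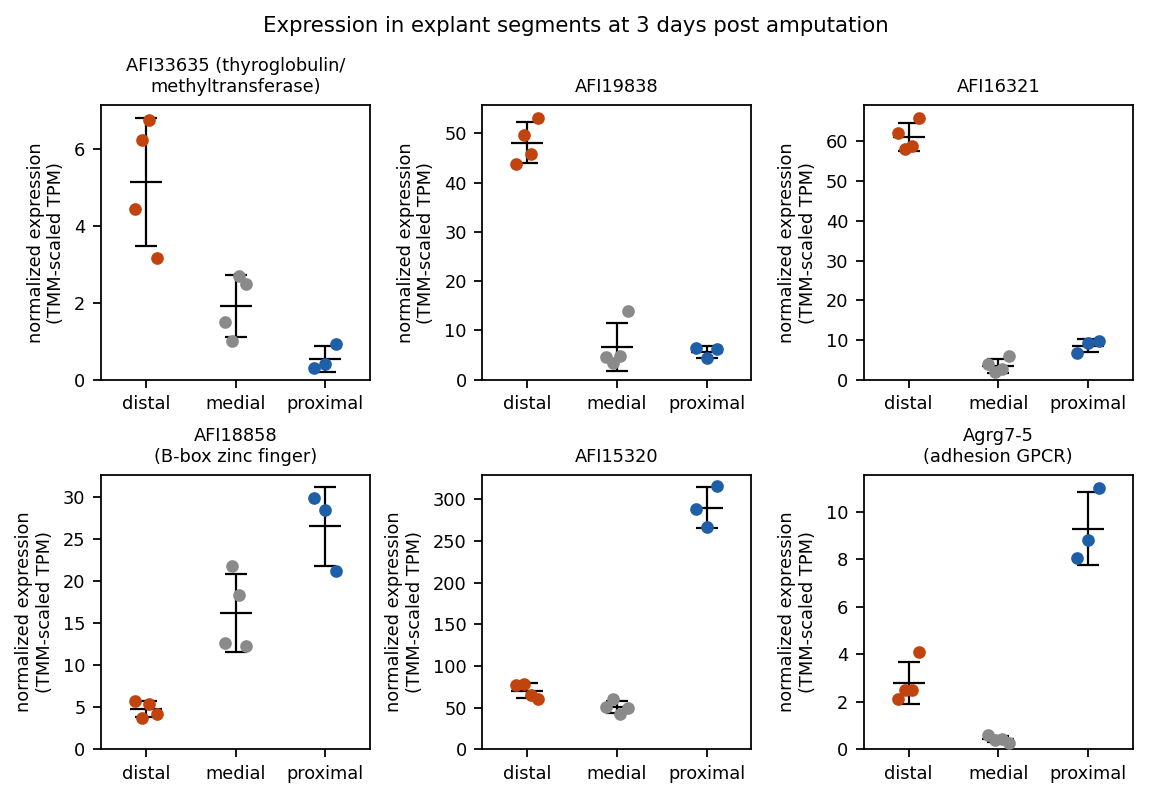
Expression (TMM-scaled TPM, linear axis from 0) of 6 called genes in distal, medial and proximal segments at 3 dpa. Points are samples, horizontal marks are means and bars are SD (n = 4 distal, 4 medial, 3 proximal). Distal and proximal samples do not overlap in any of the 6 genes. Medial samples lie around the proximal level in AFI19838 and below both ends in AFI16321, AFI15320 and Agrg7-5. They lie between the ends in AFI33635 and AFI18858, although in AFI18858 the highest medial sample is just above the lowest proximal one.

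The medial segments of the same day give a level away from both wounds. The comparisons of each end with medial share samples with the comparison of the ends, so the following values are a description. Of the 32 distal-high genes, medial means lay nearer to proximal than to distal in 28, and in 16 they lay below both ends. Distal segments were called above medial in 23 of these genes. Over all genes, 1.98% were called between distal and medial, 1.7% higher in distal and 0.284% lower. Proximal segments were called different from medial in 0 of the 32 (limma; 16 at an unadjusted p under 0.05), against 0.448% of all genes, 0.438% higher in proximal and 0.00933% lower. The median log2 difference was 1.29 for distal minus medial and 0.08 for proximal minus medial. The 37 proximal-high genes were divided. Proximal was called above medial in 14 of them and distal below medial in 7, with median differences of 0.65 for proximal and -0.68 for distal minus medial. In 3 of the 37 distal was called above medial. Neither end was called against medial in 16 of the 37 and in 9 of the 32 distal-high genes. Medial means of the 37 genes lay between the ends in 22, below both in 11 and above both in 4.

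The named genes show several of these forms. AFI19838 was at 3.28 to 13.9 in the medial samples, around its proximal level (log2 difference of proximal minus medial -0.03, of distal minus medial 2.87). AFI16321 was lowest in medial samples, at 1.82 to 5.90, with a log2 difference of 3.85 for distal and 1.14 for proximal. AFI15320 was at 42.4 to 60.2 in medial samples, and only its proximal level stood out (2.51 for proximal and 0.47 for distal minus medial). For AFI18858 the medial samples were at 12.2 to 21.8. Their mean lay between the ends, with distal 1.56 below and proximal 0.70 above on the log2 scale. AFI33635 had the opposite order, with medial samples at 1.01 to 2.70. Agrg7-5 was at 0.27 to 0.61 in medial samples, so that both ends were above it, by 1.39 in distal and by 2.84 in proximal segments.

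The same contrast at 5 dpa compares other samples, 3 distal and 3 proximal, and called 1.41% of all genes. There, 31 of the 37 proximal-high genes were called again in the same direction, against 0.947% of all genes, and 9 of the 32 distal-high genes, against 0.466%. The p-values of both days come from the same fit of all 6 groups and share the error estimate of each gene. The genes were selected at 3 dpa with this estimate, so the counts of repeated calls are not an independent test. All 69 genes kept the sign of their change, against 65% of all genes tested. The median log2 fold change moved from -1.24 to -1.33 in the proximal-high genes and from 1.17 to 0.83 in the distal-high genes. The absolute change was larger at 3 dpa in 29 of the 32 distal-high and in 13 of the 37 proximal-high genes, against 41.2% of all genes. Genes selected for a large change at 3 dpa tend to show smaller changes in other samples, so these counts are a description. With samples paired by replicate number, 19 of the proximal-high genes (0.424% of all genes) and 6 of the distal-high genes (0.312%) were called at 5 dpa. A fit of the 2 segments of 5 dpa alone called 5 of the proximal-high genes (0.0373% of all genes) and 0 of the distal-high genes (0.00933%). The error estimate of that fit comes from 5 dpa samples that also entered the estimate used to select the genes at 3 dpa. Its counts are therefore not an independent test either, and its estimate rests on fewer samples. In the fit of all 6 groups without distal replicate 2 of 5 dpa, the calls were 23 (0.42%) and 5 (0.233%).

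**Figure D3:**
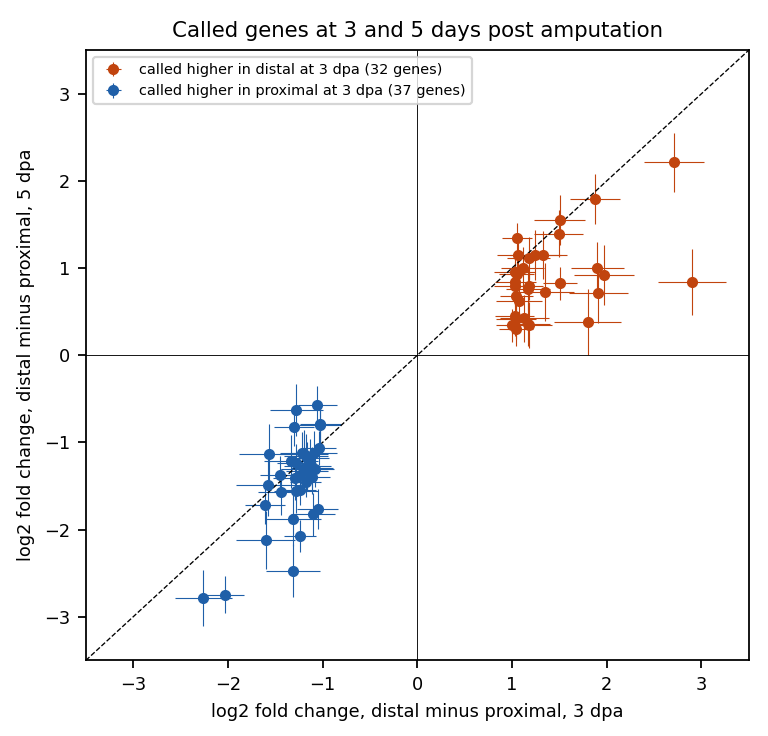
Log2 fold change of distal minus proximal segments at 5 dpa (vertical axis) against that at 3 dpa (horizontal axis) for the 69 genes called at 3 dpa. Points are genes, bars are standard errors and the dashed line marks equal changes. All 32 distal-high genes lie above 0 and all 37 proximal-high genes below 0 on both axes, and 29 of the distal-high genes are farther from 0 at 3 than at 5 dpa.

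The difference of the contrast between the days was tested in its own right. Of the 69 genes, 0 passed (limma), against 0.00466% of all genes. At an unadjusted p under 0.05 it was 10 of the distal-high and 5 of the proximal-high genes (3.99% of all genes), and nothing is read from this, since the genes were selected on the 3 dpa contrast that the difference contains. AFI19838 came closest, at 46.4, 28.4 and 16.7 in distal and 18.2, 19.1 and 10.1 in proximal samples of 5 dpa. Its log2 fold change was 0.84 ± 0.38 (SE) at 5 dpa against 2.90 at 3 dpa, a difference of 2.06 ± 0.52 (SE, adjusted p = 0.643, limma). AFI16321 remained at 52.2 to 89.9 in distal and 9.51 to 16.8 in proximal samples of 5 dpa. AFI18858 was at 1.90 to 6.43 in distal and 19.0 to 46.9 in proximal samples, and AFI15320 at 33.9 to 55.6 and 207.0 to 360.6. Agrg7-5 was lower at 5 dpa at both ends, with 0.58 to 0.97 in distal and 2.62 to 5.57 in proximal samples, and was again called (log2 fold change -1.38 ± 0.22, SE, adjusted p = 0.00208, limma).

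For the named genes of chromosome 1, lists of genes with a shared role were examined. Besides Agrg7-5, no member of a list was called, so the counts below use an unadjusted p under 0.05, which 4.37% of all genes passed as higher in distal and 4.86% as lower. Genes named from here on by this count were chosen after their values were seen. The list of translation and ribosome biogenesis genes had 11 of 27 members higher in distal segments and 0 lower, with a median log2 fold change of 0.31 against -0.01 for all genes. These 11 include factors that build the small ribosomal subunit in the nucleolus, among them Wdr36 (AFI31443), Diexf (AFI31206), Heat1 (AFI30868), Kri1 (AFI29879) and Pno1 (AFI30687). Others are Wdr18, a large subunit maturation factor, the nucleolar protein Lyar, the mitochondrial ribosomal protein Rt18a, the RNA polymerase subunit Rpab1, the splicing factor Prp39 and the leucyl-tRNA synthetase Sylc.

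Wdr36, on the minus strand of chromosome 1 from 2215940 to 2253144, was at 5.71, 5.48, 6.96 and 6.72 in distal and at 3.71, 4.01 and 2.93 in proximal samples. The segments did not overlap. Its log2 fold change of 0.67 ± 0.15 (SE) passed the adjusted p (0.0442, limma) but not the fold minimum, and with samples paired by replicate number the adjusted p was 0.0929. Lyar, from 59209395 to 59221526, was at 10.2, 10.4, 10.6 and 9.04 in distal and 6.18, 6.45 and 4.94 in proximal samples (log2 fold change 0.69 ± 0.17, SE, adjusted p = 0.0621, limma). Diexf was at 8.24, 7.25, 7.30 and 8.79 against 3.89, 3.54 and 4.71, again without overlap (0.82 ± 0.24, SE, adjusted p = 0.157, limma). The 3 cytosolic ribosomal proteins of the list had log2 fold changes below 0. Rl37, the most abundant member with means of 9958 in distal and 10829 in proximal segments, had a log2 fold change of -0.14 ± 0.37 (SE). Rl21 was at -0.15 and Rl3 at -0.48, and none of these passed the unadjusted p. The summed level of the whole list was 15642 to 22361 in distal and 19446 to 22503 in proximal samples, which overlapped.

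The muscle and cytoskeleton list had 8 of 17 members lower in distal segments and 0 higher, with a median log2 fold change of -0.34. These were 4 gene models named after beta spectrin, which with the adducins links the actin network to the cell membrane, the adducin models Adda-2 and Addg, and 2 models named after Mrtfb, a coactivator of actin-regulated transcription. Several of these models adjoin each other on 1 strand and are not independent. Sptb2-1, Sptb2-3, Sptb2-4 (which did not pass, at -0.41) and Sptb2-5 follow each other from 40016074 to 40118937 with gaps of 1134, 95 and 518 bases, Adda-2 and Addg are 28 bases apart and Mrtfb-2 and Mrtfb-1 543 bases. Taking adjoining models as 1 locus, the 8 models were 4 of 12 loci.

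Addg, from 35191907 to 35202164 on the plus strand, was the most abundant member, at 39.9, 44.7, 41.7 and 38.0 in distal and 52.0, 49.4 and 56.4 in proximal samples. The segments did not overlap (log2 fold change -0.35 ± 0.12, SE, adjusted p = 0.287, limma). Sptb2-3 was at 24.1, 17.5, 19.6 and 17.6 in distal and at 30.1, 30.2 and 34.4 in proximal samples (-0.66 ± 0.15, SE), and passed the adjusted p (0.0454, limma) but not the fold minimum. Paired by replicate number its adjusted p was 0.0626. Mrtfb-2 was at 14.1, 13.3, 13.1 and 9.54 against 27.7, 17.3 and 19.2, also without overlap (-0.72 ± 0.24, SE, adjusted p = 0.251, limma). Among the members that did not pass, Actc-13, named after cardiac actin, had a log2 fold change of -0.19, Titin-35 of -0.07 and the beta tubulin Tbb4b-4 of -0.02. The summed level of the list was 209.1 to 238.8 in distal and 261.0 to 305.9 in proximal samples, with no member at 0 in any of them, and the part of muscle cell numbers in this was not tested. Rescaled to the same total, 1 member passed as lower in distal (1.7% of all genes then), and the list median was -0.19 against 0.11 for all genes. Without proximal replicate 2, 4 members passed, and without both replicate 4 samples 5 did.

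**Figure D4:**
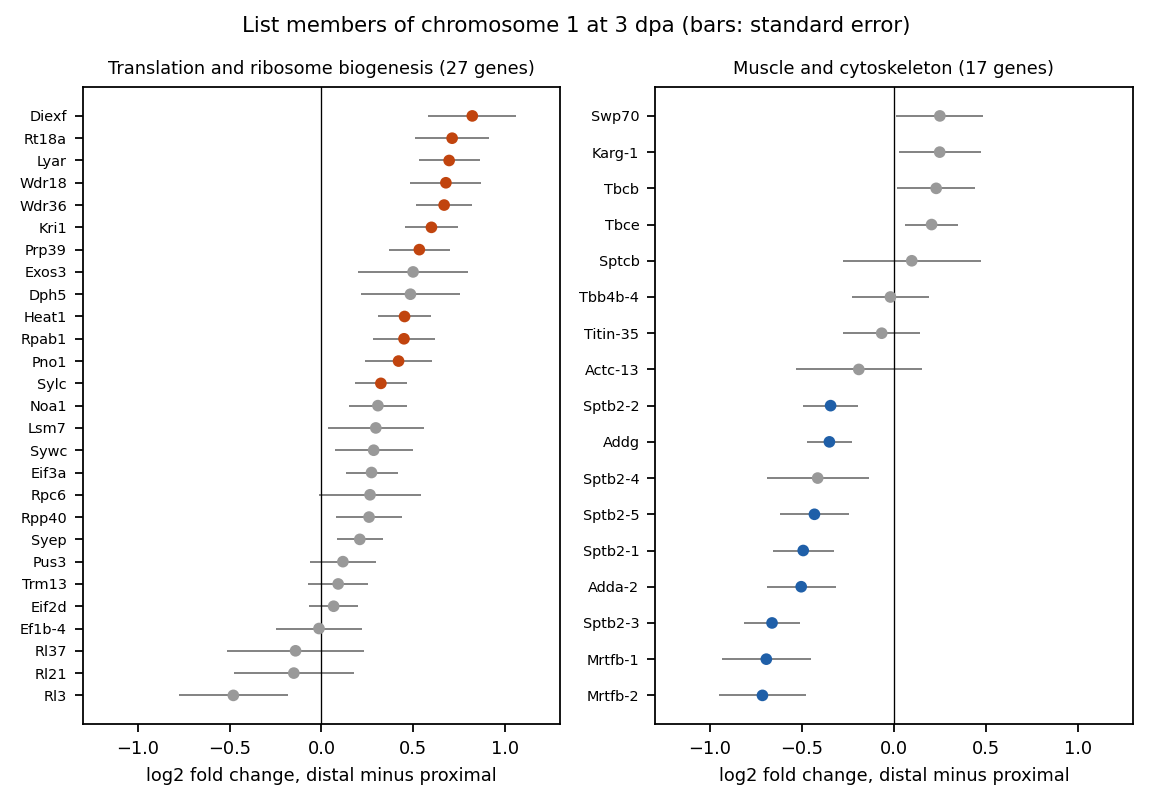
Log2 fold change of distal minus proximal segments at 3 dpa (horizontal axis) for each tested member (rows) of the translation and ribosome biogenesis list (27 genes) and of the muscle and cytoskeleton list (17 genes) of chromosome 1. Bars are standard errors and coloured points passed an unadjusted p under 0.05. The 11 coloured points of the translation list are to the right of 0, and the 8 of the muscle and cytoskeleton list to the left.

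Sample by sample, the median member of the translation list was at 0.05 to 0.19 in distal and at -0.29 to -0.16 in proximal segments, as a log2 deviation from the average of the 7 samples. Medial samples were lower still, at -0.55 to -0.38. The median members thus ran from distal through proximal to medial, without overlap between the 3 segments. For the muscle and cytoskeleton list, distal samples were at -0.18 to 0.01, proximal samples at 0.02 to 0.21 and medial samples at 0.21 to 0.34. Here the highest proximal sample was just above the lowest medial one, and distal samples were below both, close to the lowest proximal sample. At 5 dpa, 9 members of the translation list passed as higher in distal (6.85% of all genes) and 6 of the muscle and cytoskeleton list as lower (7.45%). Mrtfb-2 reached a log2 fold change of -1.59 at 5 dpa. Whether the lists differed between the days was not tested.

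**Figure D5:**
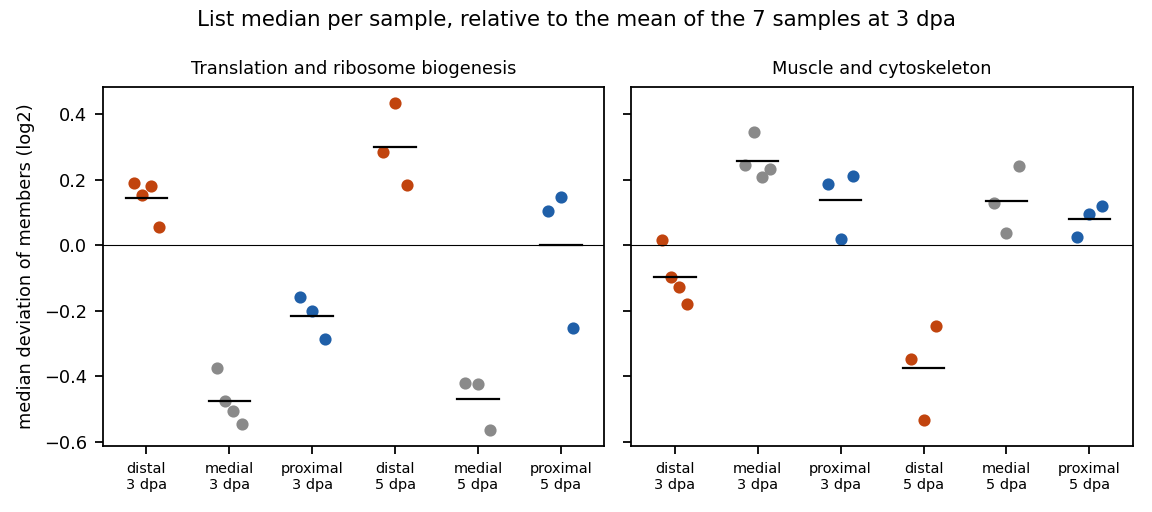
Median deviation of list members, in log2 units, from their average over the 7 distal and proximal samples of 3 dpa (vertical axis), for every explant sample (points) by segment and day (horizontal axis). Lines are group means. In the translation and ribosome biogenesis list the 4 distal samples of 3 dpa lie above the 3 proximal samples, and these above the 4 medial samples. In the muscle and cytoskeleton list the distal samples of 3 dpa, at -0.18 to 0.01, lie below the others of that day.

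Pur9 (AFI30136, chromosome 1, 11765814 to 11793887) is the enzyme of the last steps of purine synthesis and was not called. Of the chromosome's genes with a change towards distal, it had the lowest adjusted p. It was at 19.8, 16.9, 18.5 and 17.3 in distal and at 8.85, 8.94 and 10.3 in proximal samples, with no overlap. Its log2 fold change of 0.88 ± 0.16 (SE, adjusted p = 0.0156, limma) was under the fold minimum. It passed this minimum when samples were rescaled to the same total (1.04, adjusted p = 0.049, limma). Over all alternative settings its adjusted p (limma) ranged from 0.00982 to 0.0986. In the mitochondrial list 3 of 15 members were higher and 0 lower. They were Phb2, a prohibitin of the inner membrane, the protease Clpp and the co-chaperone Grpe1. Phb2 (AFI30853, 37196988 to 37226019) was at 117.3, 98.7, 111.9 and 89.1 in distal and at 63.5, 71.0 and 61.1 in proximal samples (0.66 ± 0.15, SE, adjusted p = 0.0419, limma, or 0.0529 with samples paired by replicate number). Atp5h, an ATP synthase subunit and the most abundant member, had a log2 fold change of 0.03.

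Of 47 tested members of the study's immune list, 8 were lower and 2 higher in distal segments, with Agrg7-5 the only call and a list median of -0.10. Examples are the Toll-like receptor Tlr2-17 (log2 fold change -0.63, adjusted p = 0.43, limma), at 9.62, 10.97, 11.06 and 16.6 in distal and 21.5, 20.2 and 15.5 in proximal samples, which overlapped, and the plasminogen-like Plmn-20. Plmn-20 was at 25.9, 25.7, 17.4 and 21.5 in distal and at 50.0, 39.9 and 38.0 in proximal samples (-0.89 ± 0.26, SE, adjusted p = 0.162, limma). Both members that passed as higher, Scrb1-7 (0.55) and C163b-8 (0.42), are named after scavenger receptors. Over the whole list, 13 changes were above 0 and 34 below, against 10516 and 10924 of all genes tested. Rescaled to the same total, the list median was 0.02, and 2 members passed as lower and 2 as higher of 46 tested. Of 6 clotting-like genes, 2 were lower in distal, and of 7 tested cytochrome P450 genes, 3 were, while the most abundant of these, Cp4f6-3, was at -0.10.

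Of 24 tested cell division genes 1 was higher and 1 lower in distal segments at 3 dpa, with a median of 0.08. The lower gene, Cdn2d (-0.62), is named after an inhibitor of cyclin-dependent kinases. The higher one, Rpa1-2 (0.61), is named like a replication protein, but it and the adjoining Rpa1-1 carry RNA polymerase domains. The histone gene H331 was at 3519 to 3749 in distal and at 3715 to 4079 in proximal samples (log2 fold change -0.10 ± 0.25, SE, adjusted p = 0.976, limma). At 5 dpa, 8 of the 24 genes passed as higher in distal (6.85% of all genes), among them Psf1, a subunit of the helicase that opens DNA for replication, with 1.11 against 0.43 at 3 dpa. Whether this list differed between the days was not tested.

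The remaining lists had few members past the unadjusted p. Here and in the next paragraph, a gene in brackets after a count is the most abundant member of its list. None of these bracketed genes passed. In the study's transcription factor list 2 of 27 were higher and 0 lower, with Atf4, the most abundant, at 0.03. Its median was 0.13, with 23 members above 0 and 4 below. In the kinase list 0 were higher and 1 of 26 lower (Pdpk1, the most abundant, at -0.12). In the signalling list it was 0 and 1 of 8 (Hif1a at 0.07), and in the stemness list 2 and 0 of 7 (Rl3 at -0.48). The 2 stemness genes are 28.6% of that list, which had a median of 0.19, 6 members above 0 and 1 below. Its summed level, however, was lower in distal, at 1547 to 2037 against 2415 to 2650 in proximal samples. For growth signalling the counts of higher and lower members were 0 and 1 of 17, and for Tie-like receptors 0 and 1 of 13 (Tie2-25 at -0.22). They were 0 and 0 of 16 for phosphatases (Ptprt-8 at -0.01) and 0 and 2 of 16 for matrix genes. In the Tie-like list 1 member was above 0 and 12 below, and in the matrix list 2 and 14. Of all genes tested, 10516 were above 0 and 10924 below. Such counts depend on the scaling, since the median of all genes moved from -0.01 to 0.11 at equal totals. The 2 matrix genes were Teff2 (-0.60) and Agrin-17 (-0.59). The most abundant gene of that list, Smo2a-2 (-0.21), carries a SUMO-like domain and not a matrix domain.

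For the neuron list the counts were 0 higher and 2 lower of 23. These were Gabr2-64 (-0.40), named after a GABA receptor, and Aplp-2 (-0.45), which has vitellogenin domains, those of a lipid carrier. Elav4, named after a neuronal RNA-binding protein, was at 0.10. The summed level of the neuron list was 715 to 881 in distal and 947 to 1073 in proximal samples, of which Aplp-2 alone held a mean of 528 and 719. Cilia genes were 0 and 0 of 13 (Ift25 at 0.09), innate immune genes 1 and 1 of 8, glycan genes 0 and 1 of 14 (Sia7e-3 at 0.09) and secretion and folding genes 3 and 0 of 24 (Hs90b at 0.23). Genes dated to the *A. filiformis* lineage were 2 higher and 8 lower of 91, and the most abundant of these, Unchar_12975, was at 0.22.

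The arm regeneration time course gives the levels of the called genes in other samples, 1 per stage and so without a test. Of the 37 proximal-high genes, 3 (8.11%) were higher on average in regenerates of stages 3 to 5 than in the wounded segment at 48 and 72 hours post amputation (hpa), against 42.2% of all genes. Of the 32 distal-high genes it was 22 (68.8%). The time course also has a control, a mature arm segment. At 48 and 72 hpa, 27 of the distal-high genes (84.4%) were on average above this control. It was 15 of the proximal-high genes (40.5%) and 55.4% of all genes. Rescaled to the same total, these shares were 87.5%, 62.2% and 82.5%, in that order. At the stage named 50%, with its regenerate cut into a proximal and a distal part, 25 of the distal-high genes (78.1%) were higher in the distal part, against 45.1% of all genes and 11 (29.7%) of the proximal-high genes. AFI15320 was at 477 and 170 at 48 and 72 hpa and at 2.31 to 4.25 in stages 3 to 5, and Agrg7-5 at 18.9 and 6.41 and then at 0.11 to 0.15. Pur9, by contrast, was at 7.48 and 10.1 and then at 14.7, 17.6 and 19.1. The column totals of these samples also differed, at 751116 and 612357 and then at 1866500, 1431803 and 867837. Whether Pur9 rose at equal totals was not tested. AFI16321, although distal-high in explants, was at 73.8 and 97.5 at 48 and 72 hpa and at 29.3, 16.5 and 8.40 in stages 3, 4 and 5. Column totals were 551379 to 1866500 in these samples, and rescaled to the same total only 9 of the 32 distal-high genes (28.1%) were higher in stages 3 to 5, against 16.8% of all genes. In the 50% regenerates, 68.8% of the distal-high and 16.2% of the proximal-high genes were then higher in the distal part, against 16.2% of all genes.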

How the data were processed

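RNA-seq was analysed for 20 explant samples in 6 groups of segment and day, and for 8 samples of a time course. The deposited values are a normalized signal, TPM from kallisto that the authors rescaled with TMM. TMM is described in the methods for the time course, while for explants only the label of the table names it. No counts were used here, so depth and counting error are unknown. The labels and the methods name different RNA extraction kits. Genes that reached 1 in 3 or more of the 20 samples were kept. Their log2(value + 1) went into limma's trend fit of all 6 groups (limma 3.58.1 in R 4.3.3). The contrast was distal minus proximal at 3 dpa, two-sided. Calls needed a log2 fold change beyond 1 in either direction and a p below 0.05 after Benjamini-Hochberg adjustment. Fold changes are on the log2(value + 1) scale, which understates changes of low genes. The fit was tested on simulated data. Tables and figures were made with Python 3.11.15, pandas 2.3.3 and matplotlib 3.10.9.

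Nothing in the labels says that samples came from separate cultures, so p-values measure the spread between pooled samples. The replicate numbers 2, 3 and 4 are shared by both segments at 3 dpa. Across genes, deviations from the segment means correlated at 0.32, 0.17 and 0.32 between samples of the same number. Between other samples the correlation was -0.28 to 0.09. The numbers were therefore used to pair samples in an alternative, the replicate block, while the main fit was unpaired. What a number stands for is not stated in the labels.

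Named genes are those the study names by identifier (AFI33635 and AFI18858), called named genes of chromosome 1, the 2 genes per direction with the largest change among called genes without overlap and with a mean of at least 10, and, for each list, its called members or else its most abundant member. Other genes were chosen after their values were seen, where stated. Lists were 15 sets of name stems and the study's 5 curated lists and gene ages, for chromosome 1 only, and adjoining models were joined where a gap was under 2000 bases. Samples, lists and tests were chosen with earlier results of these data known. Alternatives were a pseudocount of 0.1, no filter, a filter at 5, only the groups compared, the replicate block, both rescalings, limma without trend, and each distal and proximal sample of 3 dpa left out, with those of 5 dpa for the contrasts that use them and proximal replicate 4 of 5 dpa for all. 1 gene of the muscle and cytoskeleton list is not reported here, and the list's values are without it. The study's own fold-change calls and expression clusters in its gene table were not used.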

Additional observations from a re-analysis of the deposited data

Results flagged for a closer look

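In the 4 distal samples of 3 dpa, replicate 1 stood apart from the others for Ptprt-8, a receptor tyrosine phosphatase, at 13.7 against 10.5, 10.7 and 10.99. The gap was 0.838 of the range of the group, past Dixon's 95% limit for 4 samples. Of 27 such groups of values examined 1 was past the limit, and chance gives about 1 in 20.

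AFI21182, which has no name here, was the 1 gene (0.00466% of those tested) whose distal to proximal difference itself differed between the days. It was at 2.16, 2.75, 2.83 and 2.14 in distal and at 2.34, 3.11 and 2.982 in proximal samples of 3 dpa, where the segments overlapped (log2 fold change -0.13 ± 0.16, SE). At 5 dpa it was at 16.04, 16.6 and 12.1 in distal and at 5.02, 4.50 and 4.84 in proximal samples, without overlap (1.45 ± 0.17, SE). The difference between the days was -1.58 ± 0.23 (SE, adjusted p = 0.0353, limma). In the time course it was at 0.48 and 1.77 at 48 and 72 hpa and at 13.0, 19.2 and 17.0 in stages 3, 4 and 5. The call was absent with samples paired by replicate number, with a pseudocount of 0.1, with no filter, at equal totals and without both replicate 4 samples of 3 dpa. With 1 distal or proximal sample left out at a time it remained only without distal replicate 5 or proximal replicate 1 of 5 dpa.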

How the results depend on the processing

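All 69 called genes kept their sign under each alternative in which they were tested, and between 19 and 69 of them were called again in the same direction. Fitting only the compared groups gave 115 calls, 74 of them lower in distal. Without a minimum fold change 155 genes passed, 100 of them higher, and without both replicate 4 samples 25 were called, 12 higher and 13 lower. Leaving out 1 of the 7 samples compared, or proximal replicate 4 of 5 dpa, gave 20 to 90 calls, 8 to 51 higher and 10 to 48 lower. The replicate block, with samples paired by replicate number, gave 76 calls, 26 higher and 50 lower. It moved the calls at 5 dpa of the proximal-high genes from 31 to 19, ended the single call for the difference between the days (0 genes), and kept 55 of the 69 calls. Among the genes named it changed no call, apart from the adjusted p of Wdr36, Phb2 and Sptb2-3 given above. Calls at 5 dpa were 0 of the distal-high and 5 of the proximal-high genes when only the groups of 5 dpa were fitted, 19 of the proximal-high genes at equal totals, and 5 to 11 and 22 to 31 without 1 of the 6 samples of 5 dpa. The difference between the days gave 0 genes with a pseudocount of 0.1, no filter, equal totals or both replicate 4 samples left out, 2 with a filter at 5, and 0 to 1 without 1 of the distal or proximal samples of either day. At equal totals the median of the translation list was 0.46 and that of the muscle and cytoskeleton list -0.19, with 1 member lower, and 5 members of the latter passed without both replicate 4 samples. With 1 of the same 8 samples left out, these medians were 0.30 to 0.38 and -0.39 to -0.25, with 8 to 12 and 4 to 8 members past the unadjusted p. At equal totals 28.1% of the distal-high and 2.70% of the proximal-high genes were higher in stages 3 to 5 than at 48 and 72 hpa, against 16.8% of all genes, and 16.2% of the proximal-high genes were higher in the distal part of 50% regenerates, the same share as of all genes. The causes were not tested. The depth of the libraries is unknown, so how far low values limit the calls could not be read from these data.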

Other observations

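The heat-shock protein gene Hs90b was highest in replicate 4 of every segment at 3 dpa. It was at 555.8 in distal replicate 4 against 271.6 to 322.9 in the other distal samples, at 553.3 in proximal replicate 4 against 213.8 and 215.7, and at 349.4 in medial replicate 4 against 119.9 to 151.8. Its mean distal to proximal difference was small beside this spread (log2 fold change 0.23 ± 0.38, SE).

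Dnjb4-2 (AFI31787, chromosome 1, 46429840 to 46439281), named after a co-chaperone of heat-shock protein 70, differed between ends at 3 dpa in another way. It was at 194.1, 173.4, 190.5 and 144.4 in distal, 89.3, 87.0 and 92.7 in proximal and 25.6 to 54.3 in medial samples, so that both ends stood above the medial segment. The log2 fold change of distal minus proximal was 0.95 ± 0.25 (SE, adjusted p = 0.101, limma) and did not pass the threshold. At 5 dpa it was at 55.9 to 90.8 in distal and at 80.1 to 90.7 in proximal samples, which overlapped (-0.24 ± 0.27, SE). The difference between the days was 1.19 ± 0.37 (SE, adjusted p = 0.908, limma). The gene was chosen after its values were seen.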
